A study of Mus musculus with 19 samples.

Results

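The 10 genes described here handle lipids in hippocampal microglia: the apolipoprotein genes Apoe, Apoc1, Apoc2 and Apoc4, the lipase gene Lpl, the oxysterol enzyme gene Ch25h, the fatty acid carrier genes Fabp5 and Fabp3, and the sterol exporter genes Abca1 and Abcg1. They were taken by symbol from the deposited expression tables, in which all 10 are among 23951 genes. RNA was sequenced from microglia that had been sorted from mouse hippocampus by CD11b and CD45, in 15 libraries that form 5 groups of 3. The 3-month table holds mice with Cx3cr1CreER+/-, with or without PU.1 fl/fl (written PU/1 fl/fl in the labels), which were given tamoxifen, 50 mg/kg on each of 5 days, with collection 1 week later. The 4.5-month table holds CK, CK-p25 and CK-p25 PU.1 fl/fl (here CK-p25 PU.1 cKO) mice. All of them also carried Cx3cr1CreER+/-, had the same tamoxifen course when p25 was induced, and were collected after 6 weeks.

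In CK-p25 mice, forebrain neurons can be induced to make p25, an activator of Cdk5, and then degenerate, and the CK littermates serve as controls. PU.1 is a transcription factor of myeloid cells that is encoded by Spi1. Cx3cr1CreER recombines in microglia and in other cells that express Cx3cr1, including macrophages at the brain's borders, and every group carried it, so no group is free of Cre or tamoxifen.

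ApoE is the main protein of the brain's lipoproteins. It takes up cholesterol and phospholipid that ABCA1 and ABCG1 export from cells, and carries them to lipoprotein receptors on other cells. Genes of this pathway are targets of the LXR nuclear receptors, which oxysterols activate. In microglia, Apoe, Lpl, Ch25h and Fabp5 are known for rising in the state that follows neurodegeneration and myelin loss. Apoc1, Apoc2 and Apoc4 lie beside Apoe on chromosome 7, and apoC-II is the cofactor that lipoprotein lipase needs.

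Promoter sequence was available from RefSeq (build GRCm38.p6) for 6 of the 10 genes: Apoe, Apoc2, Apoc4, Ch25h, Fabp3 and Abca1. The 250 bases before the start site are shown for the 2 neighbouring apolipoprotein genes, for Ch25h, whose level differed widely between groups, and for Abca1, the gene of the set that did not pass the test in any of the 4 comparisons. All 4 lie on the minus strand and are written 5′ to 3′ in the direction of transcription, with the windows at chr7:19677942-19678191, chr7:19681461-19681710, chr19:34475149-34475398 and chr4:53159896-53160145. Capitals mark matches of letters: AGGTCA, as in a single nuclear receptor site, in Apoc2 and Apoc4, and TATAAA, as in a TATA box, in Ch25h and Abca1. Whether these matches work as sites was not tested.
Apoc2: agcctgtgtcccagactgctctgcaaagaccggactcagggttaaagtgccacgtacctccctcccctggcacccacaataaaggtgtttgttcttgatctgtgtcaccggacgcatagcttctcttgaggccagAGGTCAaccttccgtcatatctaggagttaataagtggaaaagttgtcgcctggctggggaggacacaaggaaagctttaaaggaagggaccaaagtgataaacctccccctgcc
Apoc4: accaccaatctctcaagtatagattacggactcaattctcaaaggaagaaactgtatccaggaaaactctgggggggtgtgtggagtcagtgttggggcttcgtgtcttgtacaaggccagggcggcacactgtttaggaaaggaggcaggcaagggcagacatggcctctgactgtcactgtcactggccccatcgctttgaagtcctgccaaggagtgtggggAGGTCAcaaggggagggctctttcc
Ch25h: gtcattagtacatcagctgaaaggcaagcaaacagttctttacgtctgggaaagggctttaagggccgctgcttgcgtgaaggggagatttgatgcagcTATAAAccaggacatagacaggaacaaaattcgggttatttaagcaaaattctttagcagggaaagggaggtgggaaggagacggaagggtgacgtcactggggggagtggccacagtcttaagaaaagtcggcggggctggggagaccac
Abca1: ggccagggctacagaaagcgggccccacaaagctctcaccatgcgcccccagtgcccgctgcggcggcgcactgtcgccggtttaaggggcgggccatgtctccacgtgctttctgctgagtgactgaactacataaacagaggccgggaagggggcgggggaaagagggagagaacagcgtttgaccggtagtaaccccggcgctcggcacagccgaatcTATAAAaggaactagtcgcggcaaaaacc

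Motifs were searched as exact letters on both strands from 250 bases before to 50 bases after each start. Sites that differ from these letters would be missed, so the absence of a match does not show the absence of a site. AGGTCA began 25 bases before the start of Apoc4, and 115 bases before and 42 bases after that of Apoc2, while 16.3% of 32851 promoters of this length hold it. TATAAA began 29 bases before the start of Abca1 and 151 bases before that of Ch25h. At 1 of the 3 Apoe starts it was found on both strands, in overlapping matches, and 13.6% of promoters hold it. GAGGAAGT, a single form of the PU.1 motif, occurs in 3.20% of promoters and was not in the windows of these 6 genes. Other forms of the PU.1 motif were not searched. An exact form of the LXR site, AGGTCA repeated after 4 bases, was in 0.0152% of promoters and likewise in none of theirs. At that share a match in 6 genes was hardly possible, so its absence says nothing about LXR sites in them.

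Values are FPKM, fragments scaled to transcript length and to the mapped fragments of the library, and differences are of log2(FPKM + 1) with the standard error (SE) of a limma fit across all genes. An adjusted p is Benjamini-Hochberg's over all genes tested (10894 at 4.5 months and 10845 at 3 months), two-sided, with a threshold of 0.05. Whether each library is a separate animal is not given in the labels, so p-values cover the variation among these libraries, which could be technical. In sorted but otherwise bulk RNA, fewer cells of a type and less RNA per cell cannot be told apart.

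The reads per library are unknown, and between 10140 and 10954 genes reached 1 FPKM in a library. CK-p25 replicate 3 is the only 4.5-month library from another run by its library name, and it lists 42.1% of genes at 0 against 31.6% to 36.4% in the other 8 libraries. Since its run holds no other library of the set, no comparison within that run can be made. Group differences that turn on it are given without it, but correlations were computed only with it. The 8 microglia markers summed to between 13927 and 25316 FPKM in the 4.5-month libraries, and those of neurons and of endothelial or mural cells to at most 34.2 and 30.5 FPKM. CK-p25 replicate 2 had the highest oligodendrocyte sum, 549 FPKM, and the highest monocyte and neutrophil sum, 803 FPKM, where the other 8 libraries had between 3.89 and 188. Spi1 measured 256, 230 and 251 FPKM in CK libraries, 251, 208 and 298 in those of CK-p25, and 165, 152 and 224 in those of CK-p25 PU.1 cKO, a difference of -0.49 ± 0.17 (SE, n = 3 per group) from CK-p25 that did not pass (limma, adjusted p = 0.745). Against CK it was -0.46 ± 0.17 (adjusted p = 0.0751), which passed without CK-p25 replicate 3 (adjusted p = 0.0407), when replicate 3 of CK-p25 PU.1 cKO was left out (-0.63, adjusted p = 0.0221), with the compared libraries alone (adjusted p = 0.0464) and with quantile normalization (-0.85, adjusted p = 0.00495). At 3 months the labels disagree: by title and description the columns named for PU.1 are controls, and by source name they are not. Spi1 was 261, 105 and 248 FPKM in the libraries labelled control and 409, 338 and 337 in those labelled PU.1 cKO, a difference of 0.92 ± 0.35 (adjusted p = 0.0853). It was 0.50 without labelled control replicate 2 (adjusted p = 0.0478) and 1.14 with quantile normalization (adjusted p = 0.0126), both past the threshold. The order of the groups goes against the labels, so every 3-month direction below holds for the labelled groups and turns under the other reading.

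Of the 10 genes, 9 rose in CK-p25 against CK, where 17.6% of all genes tested were called higher, and none fell. The groups did not overlap for those 9, as for 46.5% of genes tested. The median difference of the 10 was 4.71 on the log2 scale, beside -0.0003 for all genes tested. The 10 were chosen with earlier results of these data known, so this count and median are not independent of the choice. Abca1 was the gene that did not pass. All 10 passed the filter of a mean of at least 1 FPKM over the table, but genes near 0 in CK, such as Apoc1 and Apoc4, passed through the groups in which they are high.

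Microglia markers moved in the same comparison. Their sum was 23028 to 25316 FPKM in CK, 14528 to 16302 in CK-p25 and 13927 to 15621 in CK-p25 PU.1 cKO, and none of the 8 had overlapping values between CK and CK-p25. In CK-p25 P2ry12 (-2.12 ± 0.14), Tmem119 (-1.58 ± 0.14), Cx3cr1 (-0.94 ± 0.25) and Csf1r (-0.55 ± 0.11) fell, while Ptprc (1.00 ± 0.15) and Aif1 (0.51 ± 0.15) rose. Of other markers Flt1 (2.17 ± 0.16) and Cnp (0.39 ± 0.13) rose and Pecam1 (-2.29 ± 0.36) fell. CK-p25 PU.1 cKO against CK gave the same calls for P2ry12, Tmem119, Csf1r, Ptprc, Flt1, Pecam1 and Gfap, with a rise of Aldh1l1 (1.31 ± 0.35) besides. Leaving out 1 of 8 libraries ended the call of Cnp (limma adjusted p up to 0.154, without CK replicate 1), and 1 of 4 those of Aif1 (0.102, without CK replicate 2), Cx3cr1 (0.0725, without CK replicate 1) and Aldh1l1 (0.0720, when replicate 2 of CK-p25 PU.1 cKO was left out). With no filter the calls of Csf1r, Aif1 and Cnp were lost, and those of Aif1 and Cnp also with quantile normalization. The part of these markers in the members' differences was not tested.

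**Figure D1:**
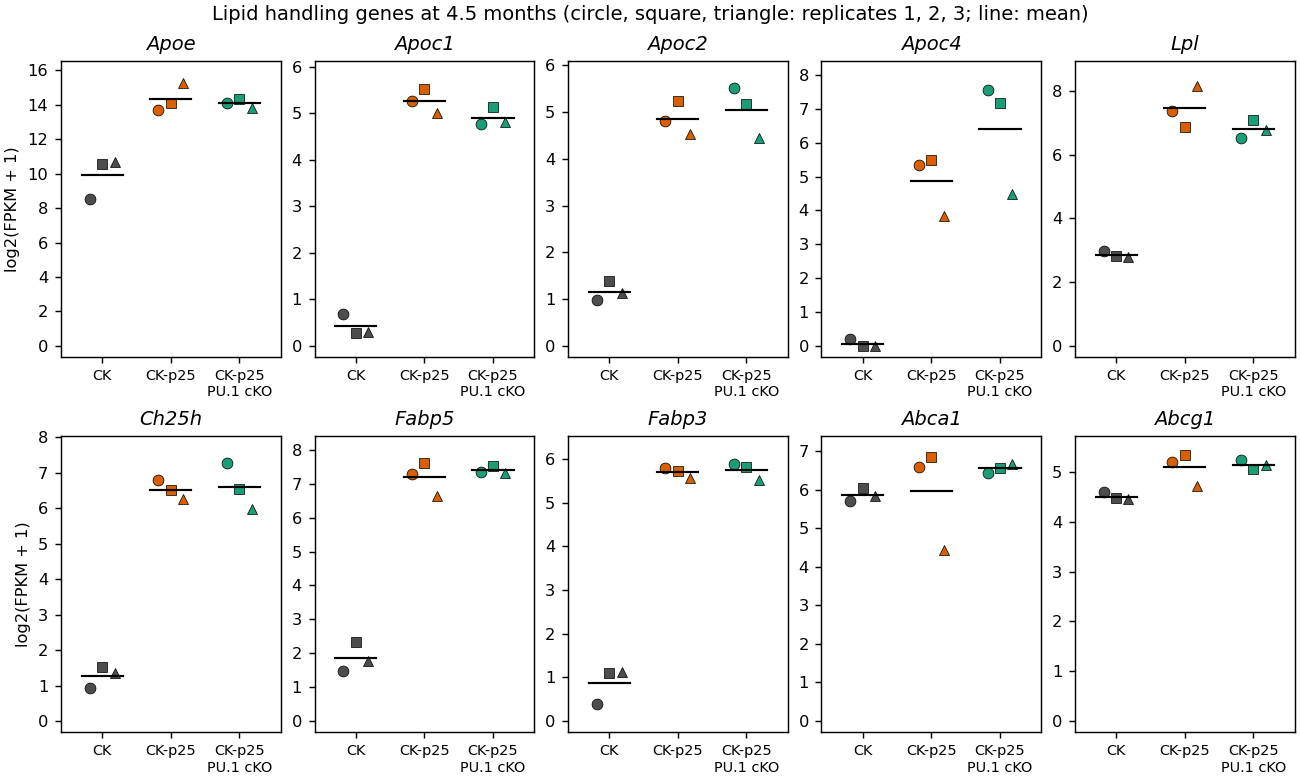
log2(FPKM + 1) of the 10 genes in the 9 libraries of the 4.5-month table, with a panel for each gene and its own vertical scale. Points are libraries and bars are group means of 3. In each panel except that of Abca1, all 3 CK-p25 libraries lie above all 3 CK libraries, and Abca1 in CK-p25 replicate 3 lies below CK.

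Apoe, the lipoprotein protein, measured 369, 1509 and 1664 FPKM in CK libraries, 13286, 17728 and 39444 in those of CK-p25, and 17906, 20361 and 14563 in those of CK-p25 PU.1 cKO. No CK library came near the other groups, and CK-p25 and CK-p25 PU.1 cKO overlapped. The rise in CK-p25 was 4.43 ± 0.60 (SE, n = 3 per group; limma, adjusted p = 0.00105), and mean FPKM was 19.9 times that of CK. By FPKM, Apoe was gene number 137, 33 and 33 of the CK libraries, 3, 2 and 1 of the CK-p25 libraries and number 2 in each CK-p25 PU.1 cKO library. It made up between 0.0737% and 0.337% of summed FPKM in CK and between 2.16% and 6.07% in CK-p25.

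The low Apoe value of CK replicate 1 went together with low markers of border macrophages, cells that also express Apoe. The 7 markers summed to 7.61 FPKM in that library and to 284 and 334 in CK replicates 2 and 3, and none of the 7 is at 0 in all libraries of a group. Other marker sums were also lowest of CK in replicate 1. They were monocyte and neutrophil (3.89 FPKM), astrocyte (59.7), oligodendrocyte (124) and neuron (4.26) markers. Its microglia sum, 25316 FPKM, was the highest of CK, and its endothelial and mural sum, 17.6, lay between the others. The low sum was thus not particular to border macrophages. In CK-p25 they summed to between 128 and 184 FPKM and in CK-p25 PU.1 cKO to between 172 and 501, and 0 of the 7 passed in CK-p25 against CK. Without CK replicate 1 the rise of Apoe was 3.73 ± 0.42 (limma, adjusted p = 0.00143, with 0.000715 to 0.00676 over all alternatives). Astrocytes, another source of ApoE, were traced by 8 markers, which summed to between 59.7 and 91.9 FPKM in CK, between 106 and 408 in CK-p25 and between 102 and 272 in CK-p25 PU.1 cKO. Of these 8, Gfap, the astrocyte filament protein, passed, with 1.36, 4.13 and 2.72 FPKM in CK against 27.6, 203 and 32.0 in CK-p25. Apoe was highest in CK-p25 replicate 3 and the astrocyte sum in CK-p25 replicate 2. The part of any of these marker lists in the Apoe values was not tested.

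**Figure D2:**
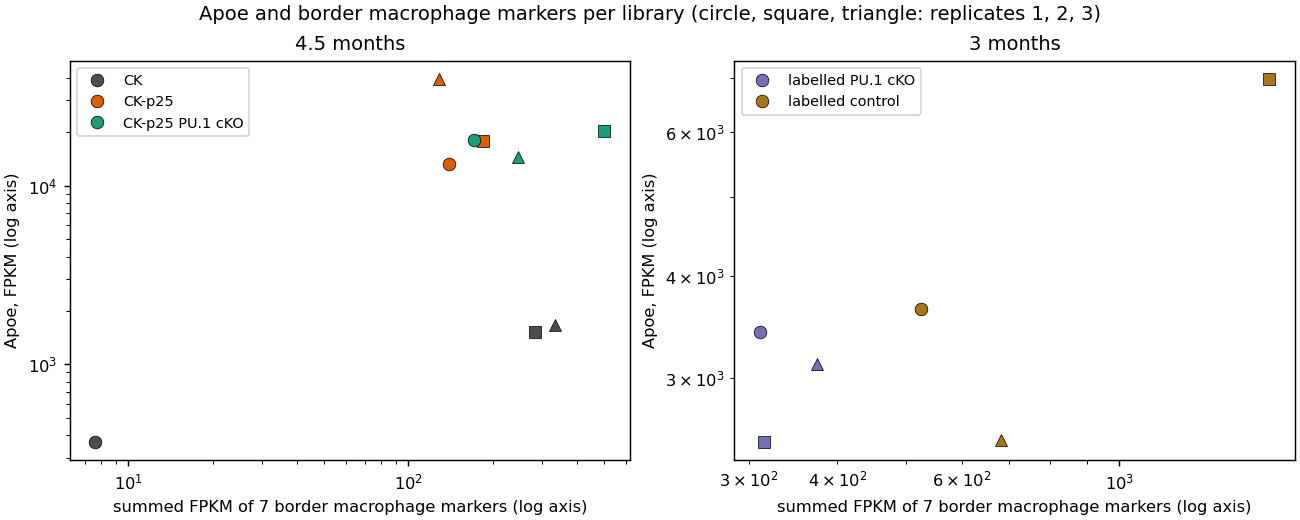
Apoe against the summed FPKM of 7 border macrophage markers, each point a library, on log axes, with the 4.5-month libraries at left and the 3-month libraries at right. CK replicate 1 is low on both axes and labelled control replicate 2 is high on both, while the CK-p25 libraries have high Apoe at marker sums between 128 and 184 FPKM.

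Apoc1, a small exchangeable apolipoprotein of lipoprotein particles, measured 0.607, 0.218 and 0.225 FPKM in CK and 37.2, 44.7 and 31.3 in CK-p25. CK-p25 PU.1 cKO libraries had 26.3, 34.3 and 27.1, which overlap CK-p25 and are far from CK. Its rise of 4.84 ± 0.17 (SE, n = 3 per group; limma, adjusted p = 2.54e-06) had the 7th smallest p of all genes tested. Apoc2, the lipase cofactor, was 0.970, 1.62 and 1.18 FPKM in CK libraries, 27.2, 36.8 and 22.3 in those of CK-p25, and 44.9, 35.2 and 20.8 in those of CK-p25 PU.1 cKO. The rise in CK-p25 was 3.70 ± 0.28 (limma, adjusted p = 6.62e-05), or 22.9 times in mean FPKM.

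Apoc4, another small apolipoprotein gene, is listed at 0 in CK replicates 2 and 3 and at 0.147 FPKM in replicate 1. It was 39.5, 43.5 and 13.2 FPKM in CK-p25, and in CK-p25 PU.1 cKO it was 187, 142 and 21.3, so that replicate 3 was the lowest of its group in each. The fitted rise in CK-p25, 4.82 ± 0.77 (limma, adjusted p = 0.00231), depends on the pseudocount because of the values at 0, and is 7.72 with a pseudocount of 0.1. Apoc4 over Apoc2 in FPKM was 1.46, 1.18 and 0.593 in CK-p25, and in CK-p25 PU.1 cKO it was 4.16, 4.03 and 1.03.

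Neighbouring apolipoprotein genes may share reads. In the RefSeq annotation the order on chromosome 7 is Clptm1, Apoc2, Gm44805, Apoc4, Apoc1, Apoe and Tomm40, where Gm44805 is a readthrough gene of Apoc4 and Apoc2, so the split of fragments between those 2 genes is uncertain. With the FPKM of Apoc2 and Apoc4 added, the rise in CK-p25 was 4.67 and the calls stayed as they were for each gene. The genes at the ends of the cluster did not pass in CK-p25 against CK: Clptm1 differed by 0.17 ± 0.09 (limma, adjusted p = 0.194) and Tomm40, a mitochondrial import channel, by 0.30 ± 0.12 (adjusted p = 0.103).

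Lpl, the enzyme that frees fatty acids from lipoprotein triglyceride, measured 6.85, 6.06 and 5.91 FPKM in CK libraries, 164, 117 and 286 in those of CK-p25, and 92.0, 136 and 109 in those of CK-p25 PU.1 cKO. The CK libraries were close to each other and well below the rest. Its rise in CK-p25 was 4.61 ± 0.29 (SE, n = 3 per group; limma, adjusted p = 3.14e-05), 30.1 times in mean FPKM. Without CK-p25 replicate 3, the highest library, it was 4.26 ± 0.19 (adjusted p = 2.62e-05, with 1.64e-05 to 0.000482 over all alternatives).

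Ch25h makes 25-hydroxycholesterol, an oxysterol that activates LXR and restrains cholesterol synthesis. It was 0.924, 1.86 and 1.57 FPKM in CK libraries, 110, 89.6 and 76.2 in those of CK-p25, and 153, 92.5 and 62.2 in those of CK-p25 PU.1 cKO. CK was far below both other groups, which overlapped. The rise in CK-p25 was 5.25 ± 0.31 (SE, n = 3 per group; limma, adjusted p = 2.20e-05), the 15th largest of 10894 genes.

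Fabp5 and Fabp3 encode carriers that bind fatty acids in the cytosol. Fabp5 had 1.79, 4.05 and 2.40 FPKM in CK libraries, 155, 196 and 99.7 in those of CK-p25, and 163, 182 and 159 in those of CK-p25 PU.1 cKO. Its rise of 5.33 ± 0.27 (limma, adjusted p = 1.28e-05) was the 11th largest of all genes tested at a pseudocount of 1. The order among the 10 turns with the pseudocount: at 0.1, Apoc4 (7.72), Apoc1 (6.48), Ch25h (5.93) and Fabp3 (5.87) exceed Fabp5 (5.75). Fabp3 had 0.317, 1.14 and 1.18 FPKM in CK libraries, 54.1, 52.3 and 46.6 in those of CK-p25, and 57.9, 55.5 and 44.9 in those of CK-p25 PU.1 cKO, with little spread within the p25 groups. It rose by 4.83 ± 0.20 (limma, adjusted p = 3.48e-06). Fabp5 exceeded Fabp3 in all 15 libraries, by 2.04 to 5.76 times in FPKM. RefSeq lists a pseudogene of Fabp5, Fabp5l2, so its values are uncertain where reads could be split.

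Abca1 passes cholesterol and phospholipid to lipid-poor apolipoproteins, and Abcg1 to particles that already hold lipid. Abca1 was 51.7, 65.4 and 56.1 FPKM in CK libraries, 96.1, 115 and 20.8 in those of CK-p25, and 85.8, 93.7 and 102 in those of CK-p25 PU.1 cKO. CK-p25 replicates 1 and 2 lie above every CK library and replicate 3 below them, and the difference was 0.10 ± 0.54 (SE, n = 3 per group; limma, adjusted p = 0.913). Without replicate 3 it was 0.86 ± 0.13 and passed (adjusted p = 0.00200, the lowest of its alternatives, which reached 0.986). Abcg1 was 23.2, 21.3 and 20.9 FPKM in CK libraries, 36.0, 39.9 and 25.5 in those of CK-p25, and 37.0, 32.3 and 34.2 in those of CK-p25 PU.1 cKO. It rose in CK-p25 by 0.59 ± 0.15 (limma, adjusted p = 0.0213), and by 0.77 ± 0.09 (adjusted p = 0.000537) without replicate 3, but the call is lost without CK replicate 2 (adjusted p = 0.0679) or 3 (adjusted p = 0.0710) and without CK-p25 replicate 1 (adjusted p = 0.0638) or 2 (adjusted p = 0.0539).

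**Figure D3:**
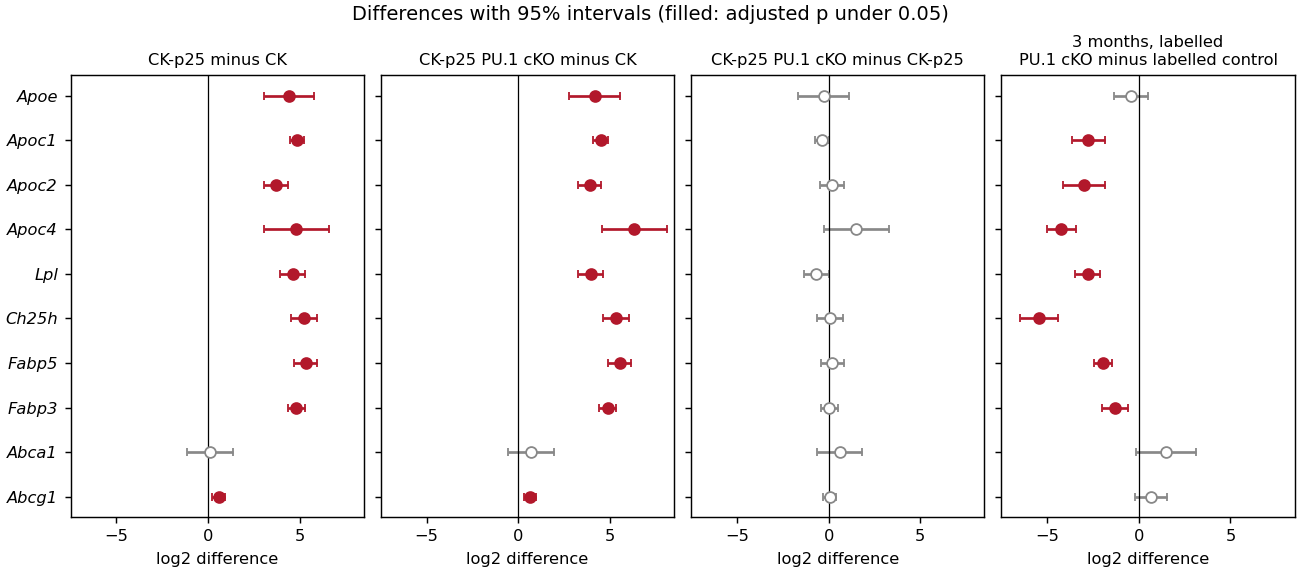
Differences in log2(FPKM + 1) for the 10 genes (rows) in 4 comparisons (panels), with 95% intervals of the limma fit and filled points for adjusted p under 0.05. In both comparisons with CK all points but Abca1 are filled and to the right of 0, none is filled between the CK-p25 groups, and at 3 months 7 points are filled and to the left of 0.

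Between CK-p25 PU.1 cKO and CK-p25 none of the 10 passed in either direction, beside 0 of 10894 genes tested with limma (0% called). An unadjusted limma p was under 0.05 for 671 genes (6.16%), and none of the 10 was among them. That share is little above what this threshold gives with no difference at all. Lpl was the nearest, at -0.66 ± 0.29 (SE, n = 3 per group; unadjusted p = 0.0535, limma adjusted p = 0.745), with a 95% interval from -1.34 to 0.01, and in that comparison Lpl was -0.31 ± 0.19 without CK-p25 replicate 3. Apoc1 differed by -0.35 ± 0.17 (interval -0.75 to 0.04) and Apoc4 by 1.52 ± 0.77 (interval -0.25 to 3.28), each with a limma adjusted p of 0.745. Apoc4 was 0.94 without CK-p25 PU.1 cKO replicate 1, 0.99 without CK-p25 replicate 3, and 2.47 ± 0.46 when replicate 3 of CK-p25 PU.1 cKO was left out, again without passing (adjusted p = 0.121, the lowest of its alternatives, which reached 0.970). Fabp3 and Abcg1 had the narrowest intervals around a difference near 0, from -0.41 to 0.50 for Fabp3 and from -0.30 to 0.40 for Abcg1. The interval of Apoe ran from -1.65 to 1.11, so a change of the size seen in Lpl lies within it. All 10 genes had overlapping groups, beside 9.38% of genes tested whose groups did not overlap.

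CK-p25 PU.1 cKO against CK uses the same CK libraries as the comparison of CK-p25 with CK, so the results are not independent of each other. Here too 9 of the 10 rose and none fell, where 17.8% of genes tested were called higher. The same limit from the choice of the 10 genes holds here. The groups did not overlap for any of the 10, as for 58.5% of genes tested. Apoc4 had the 3rd largest rise of 10894 genes, 6.33 ± 0.77 (SE, n = 3 per group; limma, adjusted p = 0.000617), on values of 0 in CK. The other rises ran from 0.64 ± 0.15 for Abcg1 (adjusted p = 0.0147) to 5.54 ± 0.27 for Fabp5 (adjusted p = 9.24e-06). For Abcg1 the call is lost without CK replicate 2 (adjusted p = 0.0514) or 3 (adjusted p = 0.0531), or with CK-p25 PU.1 cKO replicate 1 left out (adjusted p = 0.0557). Abca1 differed by 0.70 ± 0.54 (adjusted p = 0.375). Its 3 CK-p25 PU.1 cKO libraries all lay above CK, and it passed when CK-p25 replicate 3, which is part of the shared estimate of the spread, was left out (0.70 ± 0.12, adjusted p = 0.00257) or when only the compared libraries were fitted (adjusted p = 0.00338), with 0.549 the highest over its alternatives. For 8 of the 10 genes, then, the order of levels was CK below CK-p25 and CK-p25 PU.1 cKO by at least 3.70 on the log2 scale, with the 2 p25 groups not separated beyond their spread.

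At 3 months, 7 of the 10 fell and none rose in the libraries labelled PU.1 cKO against those labelled control, where 17.8% of genes tested were called lower and 12.4% higher. The median difference of the 10 was -2.36 on the log2 scale, beside -0.03 for all genes tested. The genes that fell were Apoc1, Apoc2, Apoc4, Lpl, Ch25h, Fabp5 and Fabp3, and Apoe, Abca1 and Abcg1 did not pass. For those 7 the groups did not overlap, as for 48.8% of genes tested. All 10 passed the filter on the mean over this table too. But Apoc1, Apoc4 and Fabp3, near 0 in labelled PU.1 cKO, passed through the labelled control libraries, in which they are high.

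**Figure D4:**
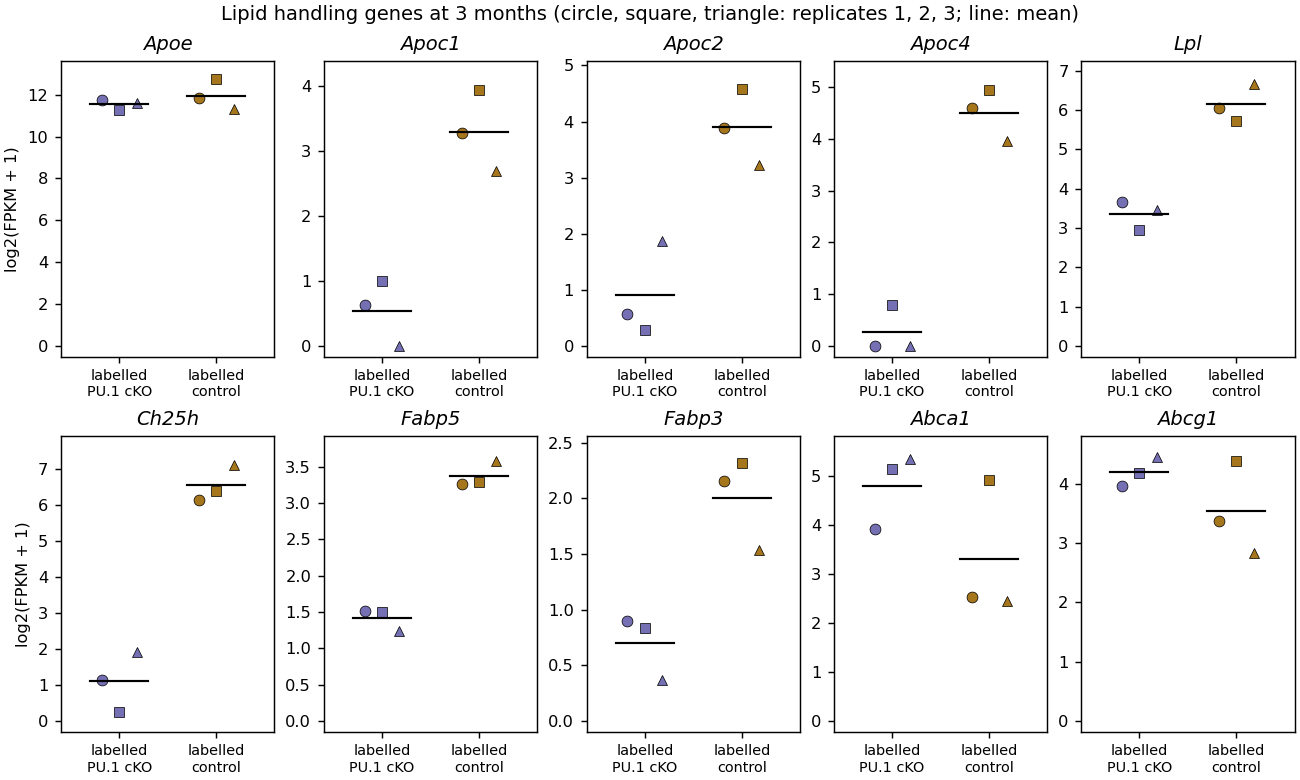
log2(FPKM + 1) of the 10 genes in the 6 libraries of the 3-month table, with a panel for each gene and its own vertical scale. Points are libraries and bars are group means of 3. Apoc1, Apoc2, Apoc4, Lpl, Ch25h, Fabp5 and Fabp3 are lower in every labelled PU.1 cKO library than in any labelled control library, and Apoe, Abca1 and Abcg1 overlap.

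Apoe was 3414, 2506 and 3120 FPKM in labelled PU.1 cKO and 3646, 6967 and 2518 in labelled control, which overlap, and differed by -0.42 ± 0.39 (SE, n = 3 per group; limma, adjusted p = 0.432). Labelled control replicate 2, with the highest Apoe, also had the highest border macrophage markers, 1629 FPKM against 525 and 682 in replicates 1 and 3 and between 311 and 375 in labelled PU.1 cKO. Of those 7 markers Cbr2, F13a1, Lyve1 and Pf4 fell and the other 3 did not pass. Each of the 4 is lost without any 1 labelled PU.1 cKO library (limma adjusted p up to 0.113, for Pf4 without replicate 2), Cbr2, F13a1 and Pf4 with quantile normalization, and Lyve1 and Pf4 without the filter. Without labelled control replicate 2, Apoe differed by -0.02 ± 0.25 (adjusted p = 0.954, the highest of its alternatives, of which the lowest was 0.143). In the same set 6 of the 8 microglia markers rose in labelled PU.1 cKO, with sums between 24701 and 28556 FPKM against 6882 and 12785, among them P2ry12 (2.35 ± 0.24), Cx3cr1 (2.10 ± 0.37), Csf1r (1.75 ± 0.25), Itgam (1.12 ± 0.24) and Tmem119 (1.09 ± 0.35). The astrocyte markers summed to between 76.2 and 80.7 FPKM in labelled PU.1 cKO and between 19.8 and 47.9 in labelled control, and Slc1a3, which microglia also express, rose by 2.36 ± 0.20. The oligodendrocyte marker Mag (1.18 ± 0.32) and the endothelial marker Pecam1 (1.35 ± 0.36) rose as well. Leaving out 1 of 4 libraries ended the calls of Tmem119, Mag and Pecam1 (limma adjusted p up to 0.148, for Tmem119 without labelled PU.1 cKO replicate 1), and 1 of 2 that of Itgam (up to 0.0605, without labelled PU.1 cKO replicate 2). With no filter Tmem119, Mag and Pecam1 did not pass either. The 7 monocyte and neutrophil markers measured, of which 0 passed, summed to 14153 FPKM in labelled control replicate 1, and the lowest labelled control library had 126. The part of these marker lists in the differences was not tested.

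Apoc1 was 0.552, 0.992 and 0 FPKM in labelled PU.1 cKO and 8.64, 14.3 and 5.45 in labelled control, a difference of -2.76 ± 0.39 (limma, adjusted p = 0.00294). Apoc2 was 0.483, 0.217 and 2.68 FPKM against 13.8, 22.8 and 8.34, a difference of -2.98 ± 0.49 (adjusted p = 0.00515). Apoc4 is listed at 0 in labelled PU.1 cKO replicates 1 and 3 and was 0.721 in replicate 2, against 23.3, 29.7 and 14.5 FPKM in labelled control, a difference of -4.24 ± 0.33 (adjusted p = 0.000326). With a pseudocount of 0.1 the differences were -4.42 for Apoc1, -4.12 for Apoc2 and -6.75 for Apoc4. For each of these 3 genes labelled control replicate 2 was highest and replicate 3 lowest, as for Apoe. The end gene Clptm1 differed by -0.02 ± 0.23 (adjusted p = 0.955), but Tomm40 fell by 1.16 ± 0.35 (adjusted p = 0.0437). That call is lost without any 1 of 5 of the 6 libraries (adjusted p up to 0.146, without labelled PU.1 cKO replicate 2) and with median centring, no filter or no variance trend.

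Lpl was 11.6, 6.74 and 9.92 FPKM in labelled PU.1 cKO and 65.3, 52.0 and 99.2 in labelled control, and fell by 2.79 ± 0.29 (SE, n = 3 per group; limma, adjusted p = 0.000887). Ch25h was 1.21, 0.198 and 2.78 FPKM against 69.6, 82.7 and 139, a difference of -5.45 ± 0.44 (adjusted p = 0.000361), the 8th largest fall of 10845 genes. These 2 genes were highest in labelled control replicate 3, where the apolipoprotein genes were lowest. Fabp5 was 1.86, 1.82 and 1.37 FPKM against 8.56, 8.75 and 11.0, and fell by 1.96 ± 0.20 (adjusted p = 0.000843). Fabp3 was 0.869, 0.780 and 0.292 FPKM against 3.47, 3.98 and 1.90, and fell by 1.30 ± 0.31 (adjusted p = 0.0183), or by 2.15 with a pseudocount of 0.1. Its call is lost without labelled control replicate 1 (adjusted p = 0.0562) and without labelled PU.1 cKO replicate 2 (adjusted p = 0.0576) or 3 (adjusted p = 0.0671).

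The exporters had differences of the opposite sign that did not pass. Abca1 was 14.1, 34.4 and 39.5 FPKM in labelled PU.1 cKO and 4.81, 29.5 and 4.49 in labelled control, a difference of 1.50 ± 0.70 (SE, n = 3 per group; limma, adjusted p = 0.140). Abcg1 was 14.7, 17.3 and 20.9 FPKM against 9.40, 20.1 and 6.17, a difference of 0.67 ± 0.38 (adjusted p = 0.215). In both, labelled control replicate 2 stood high among its group, and without it both passed, Abca1 at 2.31 ± 0.41 (adjusted p = 0.00597) and Abcg1 at 1.09 ± 0.24 (adjusted p = 0.0116). Their adjusted p under the other alternatives reached 0.337 and 0.514.

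Within groups the 10 genes did not move as 1 block. Over the 9 libraries at 4.5 months, deviations from the group means had a Pearson r of 0.88 for Apoc2 with Apoc4 and for Abca1 with Abcg1, and of -0.92 for Lpl with Abcg1. Apoe with Apoc1 had an r of -0.65. Over the 6 libraries at 3 months these were 0.12 for Apoc2 with Apoc4, 0.92 for Abca1 with Abcg1, -0.75 for Lpl with Abcg1 and 0.63 for Apoe with Apoc1, so the first and last pair differed between the tables. These pairs are examples from all pairs of the 10 genes. Libraries of a table share their normalization, and CK-p25 replicate 3 had the highest Apoe and Lpl and the lowest Abca1 and Abcg1 of its group. The r values at 4.5 months were not computed without that library, so how far they rest on it is not known.

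The genes most like a member over the 9 libraries at 4.5 months were ranked by Pearson r of log2(FPKM + 1) among 5820 genes averaging 10 FPKM or more. For Apoe they were AI607873 (r = 0.992), Fam174a (0.989) and Cybb (0.988), a subunit of the phagocyte oxidase. For Lpl they were Tmem189 (0.997), Atp5b (0.991) and Prr5l (0.991). Mlf2 (0.998), Rbck1 (0.997) and Cd200r4 (0.997) were most like Ch25h, and Fabp3 was 6th and Apoc2 9th in that ranking, both at 0.995. For Abca1 they were Tns3 (0.988), 2610507B11Rik (0.986) and Kif1b (0.983), and its r with Apoe was 0.10. The 9 libraries form 3 groups, and the points of a group share its condition. CK-p25 replicate 3 is among them, and these r values were not computed without it either.

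Other genes of lipid handling were followed in 10 lists with 103 genes. Like the 10 genes, the lists were chosen with earlier results of these data known. In CK-p25 against CK, 75 of them were tested, 25 rose and 10 fell, beside 17.6% of all genes called higher and 13.7% lower, and their median difference was 0.24. In CK-p25 PU.1 cKO against CK, 22 rose and 9 fell of 75, beside 17.8% and 13.3% of all genes, with 5 falls without CK replicate 1 and 14 without CK-p25 replicate 3. None passed between the p25 groups, and at 3 months 12 rose and 15 fell of 73 tested, with a median of -0.06, in labelled PU.1 cKO, beside 12.4% and 17.8% of all genes. With a library left out the falls in CK-p25 numbered 3 (without CK replicate 1 or 2) to 12, and 4 to 6 without CK replicate 3, CK-p25 replicate 2 or CK-p25 PU.1 cKO replicate 2. At 3 months there were between 4 and 6 rises, and between 7 and 10 falls, without labelled control replicate 1 or any labelled PU.1 cKO library. The shares of all genes given above stand beside the counts of each list below as well, and the counts of some lists are near them.

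**Figure D5:**
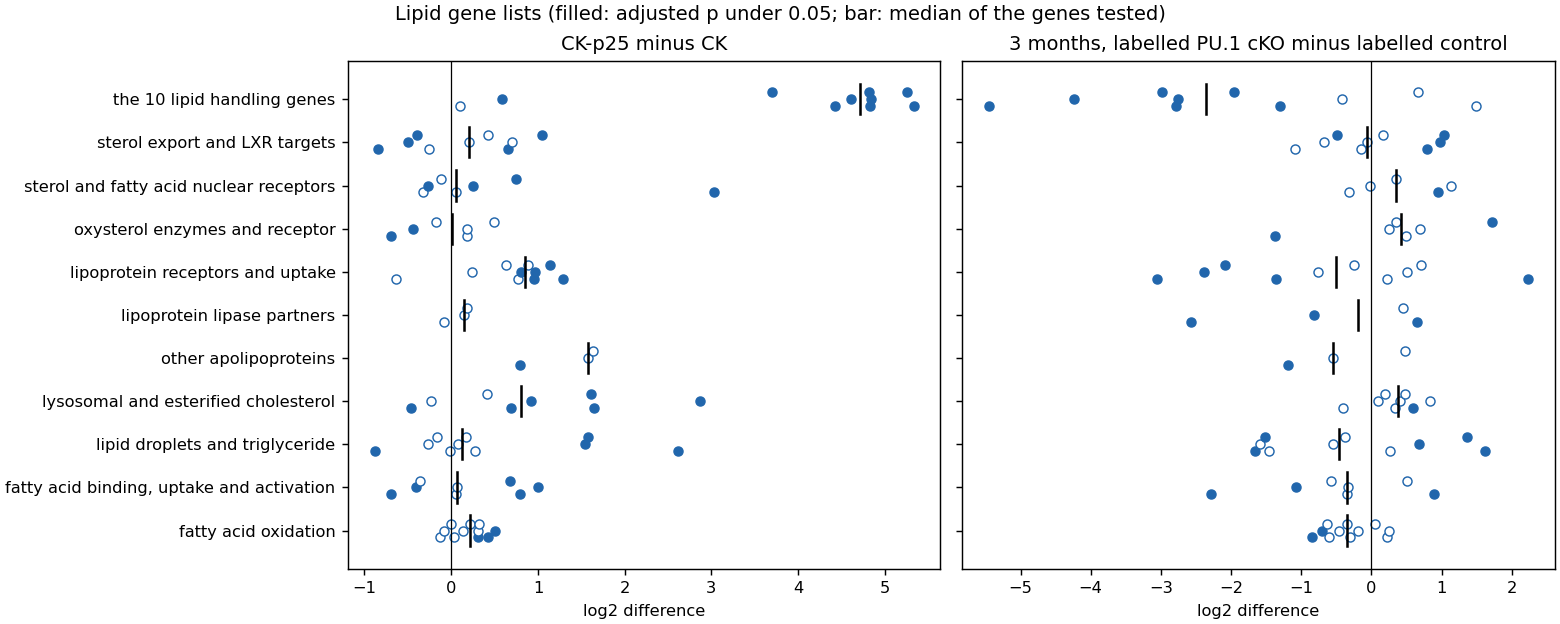
Differences in log2(FPKM + 1) of the 10 genes and of 10 lists of other lipid genes (rows), for CK-p25 against CK at left and the 3-month comparison at right. Each point is a gene tested, filled where adjusted p is under 0.05, and bars are list medians, which for the 10 genes are 4.71 and -2.36 while those of the lists lie between 0.01 and 1.58 at left.

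Among LXR targets, 2 of 9 tested rose and 3 fell in CK-p25, beside 17.6% and 13.7% of all genes. Smpdl3a, a phosphodiesterase of macrophages, went from 31.7, 29.0 and 28.3 FPKM in CK to 64.7, 68.6 and 54.6 (1.05 ± 0.18, limma adjusted p = 0.00307), and Srebf1, the regulator of fatty acid synthesis, rose by 0.65 ± 0.12. Lpcat3, a phospholipid acyltransferase, fell by 0.84 ± 0.11 (adjusted p = 0.000711), and Mylip, a ubiquitin ligase, fell by 0.50 ± 0.16. At 3 months 3 rose and 1 fell: Arl4c (1.03 ± 0.25) and Mylip (0.97 ± 0.25) had the largest rises in labelled PU.1 cKO, and Srebf1 fell by 0.49 ± 0.15. The fall of Mylip in CK-p25 is lost when any 1 of 8 of the 9 libraries is left out (limma adjusted p up to 0.128, without CK replicate 1). At 3 months Arl4c and Mylip are lost without any 1 of 4 libraries (adjusted p up to 0.0874 and 0.0819) and Srebf1 without any 1 of 5 (adjusted p up to 0.156), the highest being without labelled PU.1 cKO replicate 2, 1 and 2. The fall of Mylip in CK-p25 is also lost with no filter, no variance trend, the replicate block or the compared libraries alone, and that of Srebf1 at 3 months with a pseudocount of 0.1, either rescaling, no variance trend or the block.

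Of the nuclear receptors 3 of 7 tested rose and 1 fell in CK-p25, beside 17.6% and 13.7% of all genes. Rxrg, a retinoid X receptor, had 0.392, 0.507 and 0.712 FPKM in CK and 14.0, 9.19 and 11.8 in CK-p25 (3.03 ± 0.41, limma adjusted p = 0.000996). Nr1h3, which encodes LXR alpha, rose by 0.75 ± 0.23 (adjusted p = 0.0388) at levels of 1.89 FPKM or less, and Rxrb fell by 0.27 ± 0.09. At 3 months Rxrb was the gene of 5 tested that passed, at 0.95 ± 0.18. Among the oxysterol genes none of 6 rose and 2 fell in CK-p25, both named here: Gpr183, a receptor for oxysterols made from the product of Ch25h, by 0.70 ± 0.17 (adjusted p = 0.0144), and Insig2, which retains the sterol sensor, by 0.43 ± 0.13. At 3 months the sterol hydroxylase Cyp27a1 rose by 1.72 ± 0.25 in labelled PU.1 cKO and Insig1 fell by 1.37 ± 0.32. In CK-p25 the call of Rxrb is lost without any 1 of 8 libraries (limma adjusted p up to 0.129, without CK replicate 2), and that of Insig2 without any 1 of 6 (adjusted p up to 0.114, without CK replicate 1). Nr1h3 kept its call in 1 of the 6 leave-outs in which it passed the filter (adjusted p up to 0.112, without CK replicate 3). The fall of Insig1 is lost without any 1 of the 3 labelled PU.1 cKO libraries (adjusted p up to 0.0726). The replicate block also ended the CK-p25 calls of Rxrb, Insig2 and Nr1h3, no filter and the compared libraries alone those of Rxrb and Insig2, a pseudocount of 0.1 and no variance trend that of Rxrb, and quantile normalization that of Nr1h3.

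Lipoprotein receptors and uptake genes rose in 5 of 10 tested and fell in none in CK-p25, beside 17.6% and 13.7% of all genes. Lrpap1, a chaperone of lipoprotein receptors, rose by 1.29 ± 0.18 (limma, adjusted p = 0.00120), and Sorl1, a sorting receptor, by 1.14 ± 0.36 (adjusted p = 0.0439), with 31.2, 31.4 and 10.7 FPKM in CK-p25 against 9.20, 10.1 and 9.03 in CK. At 3 months 1 rose and 4 fell: Trem2, a lipid-sensing receptor of microglia, rose by 2.23 ± 0.33 in labelled PU.1 cKO, while the scavenger receptor Cd36 fell by 3.06 ± 0.37. None of the 3 lipase partners tested passed in CK-p25. At 3 months, of 4 tested, Angptl4, an inhibitor of lipoprotein lipase, fell by 2.57 ± 0.25 (adjusted p = 0.000682), Lmf2 fell by 0.81 ± 0.22, and the lipase maturation factor Lmf1 rose by 0.65 ± 0.15. Of 3 other genes tested that were listed as apolipoproteins by name, Apoo passed, rising by 0.79 ± 0.23 in CK-p25 and falling by 1.19 ± 0.27 at 3 months. Whether Apoo acts in lipid transport was not tested. The rise of Sorl1 is lost without any 1 of 8 libraries (limma adjusted p up to 0.123, without CK-p25 replicate 1) and that of Apoo without any 1 of 4 (adjusted p up to 0.0994, without CK replicate 2). At 3 months Lmf1 and Lmf2 are lost without any 1 of 4 libraries (adjusted p up to 0.0823 and 0.115) and Apoo without any 1 of 3 (adjusted p up to 0.0670), the highest being without labelled PU.1 cKO replicate 3, 2 and 3. The CK-p25 rises of Sorl1 and Apoo are also lost with no filter, the replicate block or the compared libraries alone.

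Genes of lysosomal and esterified cholesterol rose in 5 of 8 and fell in 1 in CK-p25, beside 17.6% and 13.7% of all genes. Nceh1, a cholesteryl ester hydrolase, went from 8.21, 6.16 and 5.77 FPKM in CK to 61.4, 57.9 and 45.9 (2.86 ± 0.17, limma adjusted p = 2.41e-05). Soat1, which esterifies cholesterol for storage, rose by 1.65 ± 0.10 (adjusted p = 3.08e-05), and Stard3 fell by 0.46 ± 0.14. At 3 months Osbpl1a was the gene of 8 that passed, at 0.59 ± 0.17. The calls of Stard3 and Osbpl1a are lost without any 1 of 6 and of 5 libraries (limma adjusted p up to 0.101, without CK replicate 3, and 0.124, without labelled PU.1 cKO replicate 2). Both are lost with no filter, Stard3 with the compared libraries alone and Osbpl1a with the replicate block.

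Among lipid droplet and triglyceride genes 3 of 10 rose and 1 fell in CK-p25, beside 17.6% and 13.7% of all genes. Dgat2, which makes triglyceride, rose by 2.61 ± 0.37 (limma, adjusted p = 0.00128), the droplet coat gene Plin2 by 1.58 ± 0.16 (adjusted p = 0.000238), and the lipase gene Mgll fell by 0.88 ± 0.17. At 3 months 3 rose and 2 fell: the lipases Lipe (1.61 ± 0.21) and Mgll (1.36 ± 0.35) rose in labelled PU.1 cKO, and Plin3 and Plin2 fell by 1.66 ± 0.18 and 1.52 ± 0.19. Plin2 and Mgll each passed in both comparisons, with opposite signs. The 3-month rise of Mgll is lost without any 1 of 4 libraries (limma adjusted p up to 0.0764, without labelled PU.1 cKO replicate 1) and with no filter.

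The other fatty acid binding, uptake and activation genes rose in 3 of 8 and fell in 2 in CK-p25, beside 17.6% and 13.7% of all genes. The transporter gene Slc27a1 rose by 1.00 ± 0.08 (limma, adjusted p = 8.82e-05) and Dbi, an acyl-CoA binding protein, by 0.79 ± 0.25, while the acyl-CoA synthetases Acsl4 and Acsl1 fell by 0.69 ± 0.20 and 0.41 ± 0.10. At 3 months 1 of 7 rose and 2 fell: Slc27a1 rose by 0.89 ± 0.22 in labelled PU.1 cKO, and Dbi and Acsl5 fell by 2.29 ± 0.32 and 1.08 ± 0.24. Of 11 fatty acid oxidation genes, 3 rose in CK-p25, with Acadl at 0.50 ± 0.10 and Acadvl at 0.43 ± 0.09 the largest. At 3 months 2 of 11 fell, Acaa2 by 0.84 ± 0.19 and Acadl by 0.70 ± 0.15, beside 17.8% of all genes. In CK-p25 the call of Dbi is lost without any 1 of 8 libraries (limma adjusted p up to 0.127, without CK replicate 2), that of Acsl4 without any CK library (up to 0.0958, without replicate 1) and that of Acsl1 without CK replicate 1 or 2 (up to 0.0591, without replicate 2). At 3 months Slc27a1 is lost without any 1 of 5 libraries (adjusted p up to 0.0830, without labelled PU.1 cKO replicate 3). Without labelled PU.1 cKO replicate 2, Acsl5 (adjusted p = 0.0722), Acaa2 (0.0790) and Acadl (0.0685) did not pass, and each is also lost without 1 or 2 other libraries. No filter and the compared libraries alone ended the CK-p25 calls of Dbi and Acsl4, and both rescalings, no variance trend and the replicate block that of Dbi.

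Between the p25 groups, the gene with the smallest p was named for each list, and none passed. Scarb1, a lipoprotein receptor for cholesterol, differed by -0.78 ± 0.14 (SE, n = 3 per group), with 34.2, 35.3 and 39.5 FPKM in CK-p25 and lower values of 18.2, 18.6 and 26.0 in CK-p25 PU.1 cKO, which do not overlap. Without CK-p25 PU.1 cKO replicate 3, Scarb1 passed at -0.94 (limma, adjusted p = 0.0251), where 12 genes were called higher and 13 lower. Dgat2 differed by -1.02 ± 0.37, Apoo by -0.53 ± 0.23, Soat2 by -0.40 ± 0.17, Acsl4 by 0.36 ± 0.20, Lpcat3 by -0.32 ± 0.11, Rxrb by -0.15 ± 0.09 and Osbp by -0.13 ± 0.07, each, like Scarb1, with a limma adjusted p of 0.745. Acadm differed by -0.18 ± 0.13 (also 0.745) and Lmf1 by -0.08 ± 0.11 (adjusted p = 0.812).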

How the data were processed

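RNA from 15 libraries of sorted hippocampal microglia was analysed, and 4 ChIP samples of the series were not analysed here. The authors deposited FPKM per gene in 1 table for each age. The submitters' processing notes name TopHat, Bowtie, Cufflinks 2.0.0 and build mm9, with no further settings, and per the labels the libraries were made with SMART-Seq v4 and Nextera XT kits, which do not mark strand. FPKM give no counts, so the depth and its counting error are unknown. The value of 1 read was judged from low genes, relative to 1 library of each table. Relative to labelled PU.1 cKO replicate 1, it was 0.763 to 1.01 at 3 months. Relative to CK-p25 PU.1 cKO replicate 1, it was 0.893 to 1.30 at 4.5 months, the highest in CK-p25 replicate 3.

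Genes whose mean over a table reached 1 FPKM were tested on log2(FPKM + 1) with limma 3.58.1 in R 4.3.3 (eBayes with a variance trend, two-sided, Benjamini-Hochberg, threshold 0.05), each table on its own, with all 9 libraries of the 4.5-month table in 1 model. The code was tested on simulated data. Groups follow the sample titles. The 10 genes and the lists were chosen with earlier results of these data known. Genes named besides the 10 and Spi1 were, of each pathway list, the 2 largest rises and falls past the threshold in CK-p25 against CK and at 3 months, the smallest p between the p25 groups, the 3 genes of highest Pearson r, markers past the threshold, and, outside that rule, the end genes Clptm1 and Tomm40. A few genes that the rule names are not reported here. Alternatives were a pseudocount of 0.1, no filter or a mean of at least 5 FPKM, median centring, quantile normalization, no variance trend, the replicate number as a block, the compared libraries alone, each library left out, and Apoc2 and Apoc4 added. Promoters came from the RefSeq table of another build, used for names and sequence.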

Additional observations from a re-analysis of the deposited data

How the results depend on the processing

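Over all alternatives the number of the 10 genes called higher was 8 to 10 in CK-p25 against CK and in CK-p25 PU.1 cKO against CK, and 0 were called in either direction between the p25 groups. At 3 months 5 to 7 were called lower, and 0 to 2 higher with a library left out (2 without labelled control replicate 2). The 5 came with a mean of at least 5 FPKM, at which Apoc1 and Fabp3 were not tested. In CK-p25 against CK, Abca1 was -0.0807 with quantile normalization and -0.35 to 0.86 with a library left out, Spi1 was -0.39 and -0.10 to 0.16, and the call of Abcg1 was lost with quantile normalization (limma, adjusted p = 0.0594) or when CK and CK-p25 were fitted alone (adjusted p = 0.0563). Clptm1 turned to -0.0480 there with quantile normalization and to -0.14 in CK-p25 PU.1 cKO against CK, and at 3 months to 0.0757 with median centring, 0.30 with quantile normalization and between -0.22 and 0.14 with a library left out.

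Between the p25 groups, where none passed, differences ran through 0 when a library was left out: Apoe from -0.60 to 0.18, Apoc2 from -0.0526 to 0.48, Ch25h from -0.26 to 0.38, Fabp5 from -0.0553 to 0.43, Fabp3 from -0.0289 to 0.15, Abca1 from -0.17 to 1.04 and Abcg1 from -0.14 to 0.18. The turns came without CK-p25 replicate 3 or CK-p25 PU.1 cKO replicate 1, and the cause was not tested. Over all genes that comparison called 0, and 12 higher and 13 lower without CK-p25 PU.1 cKO replicate 3.

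For the lists of other lipid genes, the 3-month rises numbered 19 with quantile normalization and 4 to 15 with a library left out, and the falls 7 to 19. In CK-p25 against CK the falls numbered 4 without the filter, 4 with only the compared libraries and 3 to 12 with a library left out. In CK-p25 PU.1 cKO against CK they numbered 14 with only the compared libraries and 5 to 14 with a library left out, and between the p25 groups 0 to 1. Calls were followed through the leave-outs for end genes, markers and, of each list, only the 2 largest rises and falls. Of these calls, 21 of 34 in CK-p25 against CK held with each library left out. So did 14 of 37 at 3 months and, for markers, 7 of 9 in CK-p25 PU.1 cKO against CK. The other calls of list genes are not in these counts. Over all genes, 56.3% of calls in CK-p25 against CK were higher and 45.6% with quantile normalization, 57.2% and 45.9% in CK-p25 PU.1 cKO against CK, and 41.1% at 3 months, where median centring gave 51% and quantile normalization 53%. The 3-month calls over all genes were 1344 higher and 1925 lower, and 580 and 960 without labelled PU.1 cKO replicate 2.

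Same-numbered libraries correlated at -0.05 to 0.17 at 3 months and -0.02 to 0.13 at 4.5 months in their deviations from the group means. Of these pairs, 2 of 3 at 3 months and 3 of 9 at 4.5 months exceeded 0.1, the minimum set for pairing. Some libraries of different number did as well (r up to 0.154). Pairing by number was thus neither shown nor excluded, and the main fits left it out. With the replicate number as a block, 9 of the 10 genes were called higher in CK-p25 and in CK-p25 PU.1 cKO against CK, 0 between the p25 groups and 7 lower at 3 months, and the lists gave 23 rises and 7 falls, 21 and 10, 0 and 0, and 11 and 16. The difference of Spi1 between CK-p25 PU.1 cKO and CK (-0.46, limma adjusted p = 0.0751) passed with the block (adjusted p = 0.0237). The number of libraries per group and the unknown read depth limit the precision of genes near 0 FPKM.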
